A study of Mus musculus with 30 samples.

Results

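The comparison described here set 2 mouse embryonic stem cell lines side by side before any drug was added, taking 6 of the 30 libraries of the series. The first line, called WAPL below, has the genotype WAPL-AID, Tir1. The second, called WAPL-NIPBL, has NIPBL-FKBP and RAD21-Halo beside WAPL-AID and Tir1, so both lines carry the WAPL degron and Tir1, and the FKBP and HaloTag edits are in the second line alone. Each was represented by 3 untreated libraries, chosen by genotype and treatment label and not by any measured value. Every group comes from 1 cell line, the labels do not say whether one line was made from the other, and so the edits and the cloning cannot be told apart. The labels do not say that the replicates were separate cultures, and p-values measure only the spread between these samples.

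The cells are E14 embryonic stem cells, a male 129P2/Ola line, kept in serum with LIF and the inhibitors PD0325901 and CHIR-99021, which block MEK and GSK3. Further pairs were used for comparison, none of whose libraries enter the untreated WAPL pair. The first is the same pair of lines after 24 h, with WAPL given 500 µM auxin and WAPL-NIPBL given 500 µM auxin with 500 nM dTAG-13. The other is the untreated PDS5AB line (AID degrons on PDS5A and PDS5B, with Tir1) and the untreated PDS5AB-NIPBL line, which adds NIPBL-FKBP and RAD21-Halo. Untreated TIR1 cells, which have no degron fusion, are quoted as a reference level.

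Cohesin is a ring-shaped complex that holds sister chromatids together and folds interphase chromosomes into loops, and RAD21 is the subunit that closes the ring. NIPBL activates the motor that enlarges a loop, whereas WAPL, working with PDS5 proteins, opens the ring and frees it from chromatin. A degron destroys a tagged protein only after its small molecule is added, but a tag, its linker or a selection cassette can alter the level of the edited gene without any drug. Embryonic stem cell lines are known to vary in imprinting and in karyotype from clone to clone.

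Each library was a polyA-selected RNA-seq library, and the deposited table counts fragments for each of 55421 genes. Totals of the 6 libraries ran from 22235051 to 33976968 fragments, within the range over the 30 libraries of 19632704 to 45539021. Levels are given as CPM, counts scaled to the size of the library. On the log2 CPM scale Pearson's r was 0.990 to 0.991 between replicates of a line and 0.984 to 0.988 between libraries of the 2 lines. Of the 12 defining markers of embryonic stem cells that were listed, all 12 were tested and none was called (1 at an unadjusted p under 0.05, 1 called by DESeq2), and their summed level was 6421 to 6994 CPM in WAPL and 6445 to 6598 CPM in WAPL-NIPBL. Fibroblast markers, which would mark feeder cells, summed to 51.8 to 56.2 CPM in WAPL and 33.97 to 37.5 CPM in WAPL-NIPBL over the 9 of 16 that were tested. Dcn, Lum, Postn and Col3a1 were among those too low to be tested. Of the 9 tested, 1 was called, lower in WAPL-NIPBL, beside 10.7% of all genes, and 5 had an unadjusted p under 0.05. Their median log2 difference was -0.49. Pdgfrb (10.5 CPM in WAPL and 10.8 CPM in WAPL-NIPBL), Col1a1 (7.64 and 5.79 CPM) and Thy1 (5.45 and 4.70 CPM) were measured and not called.

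The edited genes themselves differed between the untreated lines. Wapl (ENSMUSG00000041408.18, GRCm38 chromosome 14, 34673928 to 34747983, plus strand) encodes the releasing factor that is tagged in both lines. Its level was 163, 187 and 178 CPM in the WAPL libraries and 292, 315 and 287 CPM in the WAPL-NIPBL libraries. The groups did not overlap, and the log2 difference was 0.76 (SE 0.077, adjusted p = 2.0e-08 by the quasi-likelihood test of edgeR, corrected over 19868 genes). Untreated TIR1 cells, whose Wapl gene is not tagged, stood at 291 CPM ± 13.05 (SD, n = 3), so the lower of the 2 WAPL-AID lines was the one without the NIPBL tag.

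Nipbl (ENSMUSG00000022141.7, chromosome 15, 8290617 to 8444463, minus strand), the loader and motor activator, was 130, 164 and 162 CPM in WAPL. In WAPL-NIPBL, where it carries FKBP, it was 66.6, 75.3 and 68.1 CPM, a log2 difference of -1.12 (SE 0.106, adjusted p = 7.3e-09). Rad21 (ENSMUSG00000022314.10, chromosome 15, 51962240 to 51991747, minus strand), with its HaloTag, was lower by a smaller amount. Its libraries read 432, 484 and 457 CPM in WAPL and 315, 329 and 323 CPM in WAPL-NIPBL, a log2 difference of -0.51 (SE 0.059, adjusted p = 3.2e-07). Neither gene's groups overlapped. Pds5a and Pds5b, untagged in both lines, were not called, with log2 differences of 0.17 (adjusted p = 0.35) and 0.19 (adjusted p = 0.11). With replicate number as a block the adjusted p of Pds5b was 0.032. Fkbp1a, the mouse gene of the FKBP12 protein on which the tag is modelled, was 291 CPM ± 18.9 in WAPL and 301 CPM ± 9.03 in WAPL-NIPBL (SD, n = 3) and was not called.

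In the other pair, where PDS5AB-NIPBL has the same FKBP and HaloTag edits, the differences of Nipbl and Rad21 were smaller. Nipbl was lower by 0.31 on the log2 scale in PDS5AB-NIPBL than in PDS5AB (adjusted p = 0.022), and the 2 pairs differed by -0.81 (SE 0.148, adjusted p = 0.00035 for the difference of differences). For Rad21 the PDS5AB pair gave -0.18 (adjusted p = 0.018), and the pairs differed by -0.32 (SE 0.083, adjusted p = 0.0091). The Rad21 levels of the lines with the HaloTag overlapped, as the PDS5AB-NIPBL libraries spanned the range of the WAPL-NIPBL libraries. Among lines without the HaloTag, every PDS5AB library was below every WAPL and TIR1 library in Rad21. For Nipbl, every PDS5AB-NIPBL library was above every WAPL-NIPBL library. The PDS5AB libraries carry the library numbers 1, 9 and 17 and those of PDS5AB-NIPBL 25, 31 and 37, so that pair spans 2 stretches of the numbering. WAPL and WAPL-NIPBL libraries alternate within 27 to 41. Whether that numbering has a part in any difference between the pairs was not tested.

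**Figure D1:**
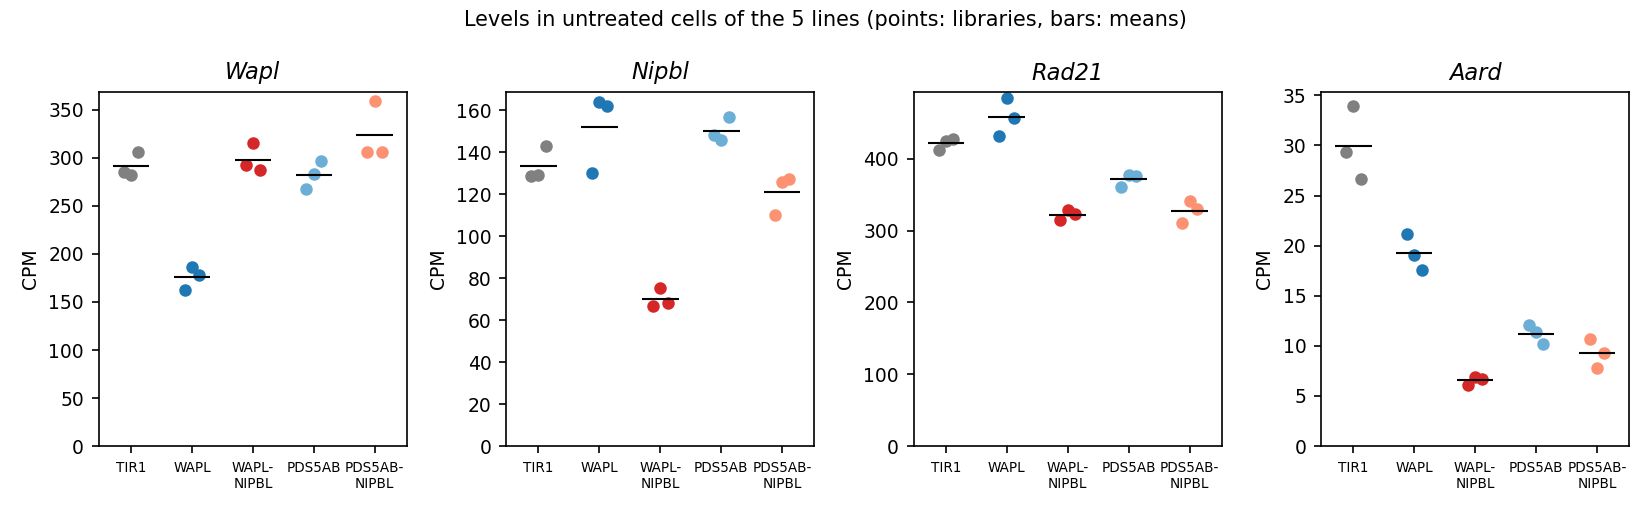
CPM of Wapl, Nipbl, Rad21 and Aard in untreated libraries of the 5 lines, with each point 1 library and each bar the mean of 3. Wapl is lowest in the WAPL line, Nipbl is lowest in WAPL-NIPBL, and Aard falls from 19.3 CPM in WAPL to 6.59 CPM in WAPL-NIPBL.

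Genes beside the edited loci were looked at next, taking every tested gene that starts within 500 kb. Of 26 such genes, 3 were called, 2 near Wapl among 14, 1 near Rad21 among 5 and none near Nipbl among 7 (2 of these at an unadjusted p under 0.05, none by DESeq2), where 10.7% of all tested genes were called. Aard (ENSMUSG00000068522.4, chromosome 15, 52040107 to 52045722), which lies 48.4 kb from Rad21, was 21.1, 19.08 and 17.6 CPM in WAPL. It was 6.11, 6.94 and 6.70 CPM in WAPL-NIPBL, a log2 difference of -1.54 (SE 0.126, adjusted p = 3.0e-10), with no overlap. In the PDS5AB pair Aard did not pass the test (log2 difference -0.27, adjusted p = 0.091), and the level was 9.25 CPM in PDS5AB-NIPBL and 11.2 CPM in PDS5AB. TIR1 cells had 29.3, 33.9 and 26.7 CPM. Both PDS5AB lines, with and without RAD21-Halo, were thus below TIR1 and WAPL.

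Grid1 (ENSMUSG00000041078.7, chromosome 14, 34820108 to 35583379), a glutamate receptor family gene 72.1 kb past the end of Wapl, was among the genes that fell furthest. Its libraries read 3.21, 4.09 and 4.09 CPM in WAPL and 0.569, 0.458 and 0.489 CPM in WAPL-NIPBL (log2 difference -2.91, SE 0.222, adjusted p = 8.3e-11). TIR1 cells had 3.401 CPM and the PDS5AB lines 7.21 and 6.38 CPM, so WAPL-NIPBL stood apart from the other 4 lines. Gprin2, also near Wapl, fell by 0.38 on the log2 scale (adjusted p = 0.038) but did not keep its call in 6 of 11 alternatives, 4 of them the omission of WAPL replicate 1 or 2 or of WAPL-NIPBL replicate 2 or 3 (adjusted p up to 0.22). Glud1 and Bmpr1a near Wapl, Eif3h and Utp23 near Rad21, and Nup155 and Cplane1 near Nipbl were not called.

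Across the genome, 2119 of 19868 tested genes were called at an adjusted p under 0.05, which is 10.7%. Of these, 992 (4.99%) were higher and 1127 (5.67%) lower in WAPL-NIPBL. The median log2 difference over all tested genes was -0.0036. At least 2-fold changes were less even, with 155 genes higher and 438 lower. Protein-coding genes made up 93.5% of the called genes and 76.6% of the tested ones.

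**Figure D2:**
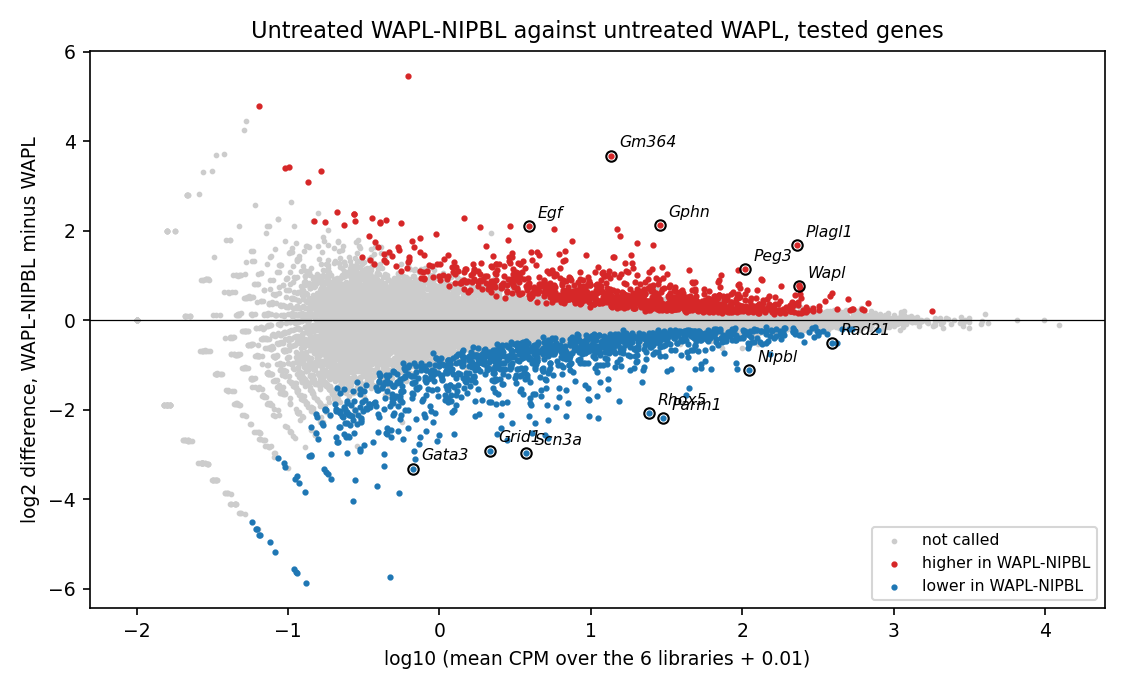
Log2 difference of every tested gene (WAPL-NIPBL minus WAPL, untreated) against its mean level over the 6 libraries, with called genes in colour. Called genes are spread over the whole range of levels, 992 above 0 and 1127 below, and the circled genes are described in the text.

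The treated cells give the same pair of lines in other libraries, which share with the untreated ones the model's filter and its estimate of spread. There, 5895 genes (29.7%) were called, which holds the line difference and the difference between the treatments together. Of the 2119 genes called before treatment, 1585 were called again, and 1552 of those kept their direction. The shared genes in the same direction were 73.2% of the untreated list and 26.3% of the treated list. The remaining 33 genes were called in opposite directions.

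The 12 genes that fell most, among called genes of adequate count with separated groups, were Scn3a, Grid1, Dio3, Lcp1, Nlrp4f, St8sia5, Dab2, Pcsk1, Spats2l, Parm1, Ddr2 and Pramel6. Log2 differences ran from -2.97 for Scn3a to -2.14 for Pramel6. Several act at the cell surface or in signalling. Scn3a, a voltage-gated sodium channel subunit, was 6.02, 6.52 and 7.40 CPM in WAPL and 0.711, 0.705 and 1.08 CPM in WAPL-NIPBL. Parm1, a mucin-like membrane protein and the most abundant of the 12, was 49.6, 45.2 and 51.8 CPM against 13.03, 8.81 and 10.7 CPM (log2 difference -2.18, SE 0.115, adjusted p = 1.9e-14). Ddr2, a receptor tyrosine kinase for collagen, was 18.97, 19.2 and 16.3 CPM against 4.41, 3.88 and 3.88 CPM (log2 difference -2.17, SE 0.122, adjusted p = 7.1e-14). In each of these genes every WAPL-NIPBL library lay below every WAPL library.

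Others of the 12 mark early development or the germ line. Dab2, an endocytic adaptor that is high in primitive endoderm, fell from 8.77, 5.57 and 6.81 CPM to 1.52, 1.27 and 1.54 CPM (log2 difference -2.30, SE 0.227, adjusted p = 1.5e-08). Nlrp4f, of an oocyte-expressed family, read 8.65, 8.15 and 8.50 CPM in WAPL and 1.75, 0.952 and 1.64 CPM in WAPL-NIPBL. Dio3, the enzyme that inactivates thyroid hormone and the far member of the imprinted Dlk1 to Dio3 cluster, was 6.58, 4.09 and 3.74 CPM against 0.995, 0.529 and 0.803 CPM. Pramel6, a PRAME family gene active in naive cells, read 19.03, 15.1 and 13.1 CPM against 4.69, 3.101 and 3.14 CPM. Nlrp4f and Pramel6 have near relatives in the genome, and fragments that match several copies were not counted, so their values are uncertain.

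The 12 genes that rose most were Gphn, Egf, Usp29, Gli1, Ppm1h, Platr15, Wdr86, Nxf3, Plagl1, Efhc2, Napsa and Tmem40. Gphn (ENSMUSG00000047454.12, chromosome 12, 78226379 to 78684772, plus strand) encodes gephyrin, which anchors inhibitory receptors at synapses and makes the molybdenum cofactor. It was 11.7, 10.3 and 9.64 CPM in WAPL and 48.6, 45.6 and 44.9 CPM in WAPL-NIPBL (log2 difference 2.13, SE 0.090, adjusted p = 1.7e-16). All other untreated lines sat near the WAPL level, at 11.1 CPM in TIR1, 14.2 CPM in PDS5AB and 15.4 CPM in PDS5AB-NIPBL. The rise was called in the treated pair as well (log2 difference 1.88). Gphn overlaps 3 genes of the opposite strand, and the counting did not use strand.

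Plagl1, an imprinted zinc-finger gene, was the most abundant of the 12 and rose from 99.3, 114 and 113 CPM to 358, 348 and 341 CPM (log2 difference 1.68, SE 0.082, adjusted p = 4.3e-15). Gli1, the transcription factor that is also a standard output of Hedgehog signalling, was 3.89, 5.75 and 8.07 CPM against 19.6, 22.8 and 29.4 CPM. Nxf3, an X-linked member of the RNA export factor family, was 9.39, 10.4 and 8.58 CPM against 29.2, 32.03 and 32.1 CPM. Egf, the gene of epidermal growth factor, was 1.39, 1.48 and 1.54 CPM against 5.64, 7.19 and 6.15 CPM. In all 4 genes the groups were apart. Egf lies at the edge of a chromosome 3 segment described below, and it overlaps 3 genes of the opposite strand.

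A predicted gene outside the naming rule, chosen after its values were seen, rose further than any of these. Gm364 (ENSMUSG00000079584.2, X chromosome, 57409154 to 57488767, plus strand) was 2.47, 1.52 and 1.89 CPM in WAPL and 28.1, 26.96 and 20.95 CPM in WAPL-NIPBL. That is a log2 difference of 3.68 (SE 0.199, adjusted p = 3.2e-14). TIR1 cells were between the lines, at 7.51 CPM ± 0.862 (SD, n = 3), and the PDS5AB lines stood near WAPL, at 1.59 and 1.81 CPM. In the treated pair the difference was 4.11.

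**Figure D3:**
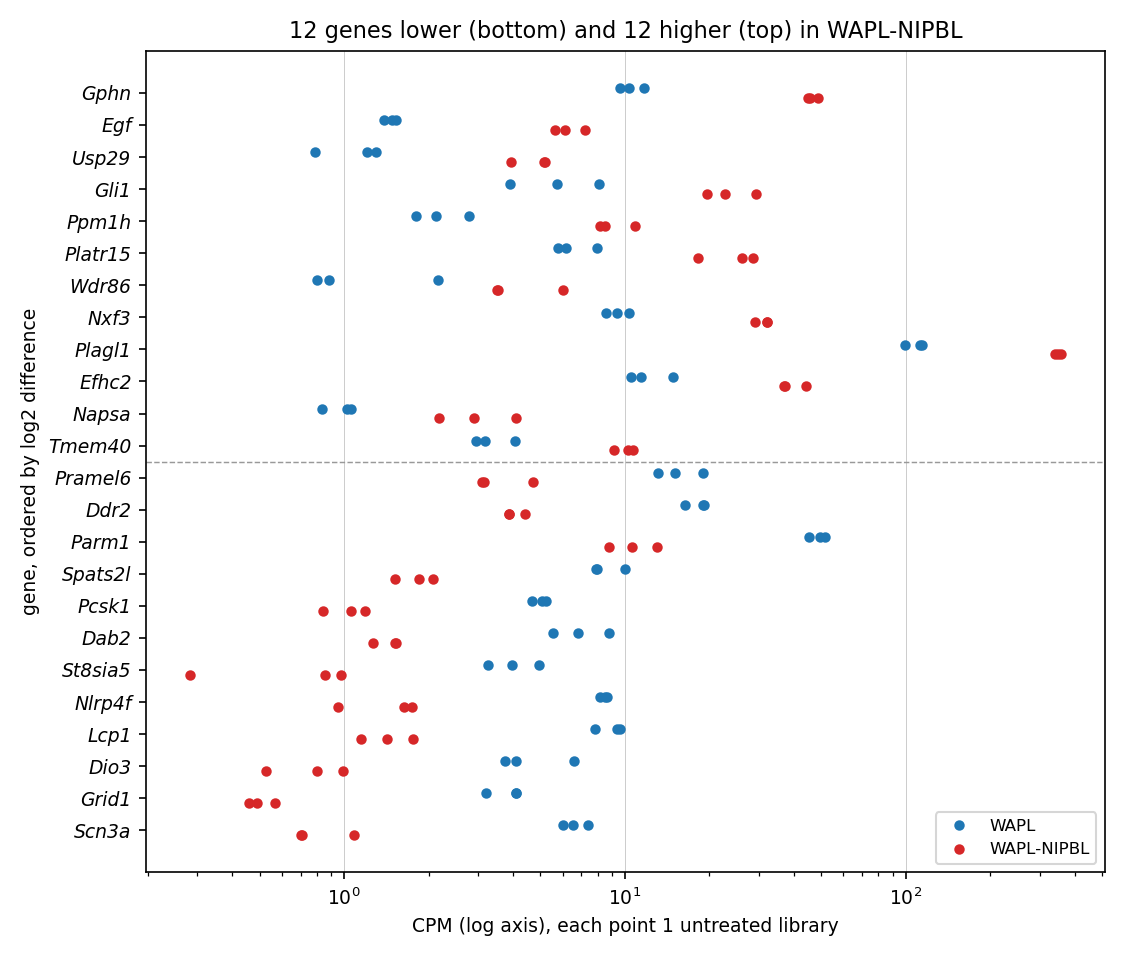
CPM on a log axis for the 12 genes that fell and the 12 that rose most, with each point 1 untreated library of WAPL (blue) or WAPL-NIPBL (red). The 3 libraries of one line never reach those of the other, because separation was part of the rule that chose these genes.

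Of these 24 genes, 23 were called in the same direction in the treated pair. The exception was Scn3a, with a log2 difference of -0.80 (adjusted p = 0.17). Against untreated TIR1 cells, the WAPL mean was the nearer of the 2 lines in 20 of the 24 genes by ratio and in 22 by difference in CPM. Tmem40, at 7.96 CPM in TIR1, was nearer to WAPL-NIPBL by both. The untreated TIR1 libraries are numbered 5, 13 and 21, and the untreated libraries of the 2 WAPL lines lie within 27 to 41. The part of this numbering in the comparison with TIR1 was not tested.

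Among 15 tested genes of naive pluripotency, the ground state held by the 2 inhibitors, 1 was called and 14 were not, a share near the 10.7% of all genes. Nanog was 1027, 949 and 965 CPM in WAPL and 923, 880 and 959 CPM in WAPL-NIPBL, and Pou5f1 was 804, 683 and 702 CPM against 713, 649 and 656 CPM. Esrrb and Zfp42 were not called, with log2 differences of 0.057 and -0.12. Sox2 was 461, 453 and 429 CPM against 510, 559 and 499 CPM, which did not pass the test (log2 difference 0.22, adjusted p = 0.063) but did with the replicate block (adjusted p = 0.041). Nr0b1 fell by 0.40 on the log2 scale (adjusted p = 0.023), a call lost when WAPL replicate 1 or 2 or WAPL-NIPBL replicate 2 or 3 was left out (adjusted p 0.057 to 0.13).

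Genes of later lineages moved in both directions. Of 16 genes of the formative and primed epiblast, 2 rose (0 to 1 without any 1 library other than WAPL-NIPBL replicate 2) and 3 fell (1 without WAPL replicate 1 or WAPL-NIPBL replicate 3). Lef1, among those that rose, lies in the chromosome 3 segment described below. In the streak and mesoderm list, 2 of 17 rose, T and Cdx2, and 2 fell, against 10.7% called among all genes. The call of Cdx2 was lost without WAPL replicate 3 or WAPL-NIPBL replicate 1 (adjusted p 0.091 to 0.094). T, the brachyury factor of the primitive streak, was 2.996, 2.96 and 3.70 CPM in WAPL and 9.85, 8.60 and 8.62 CPM in WAPL-NIPBL (log2 difference 1.49, SE 0.184, adjusted p = 8.6e-07). Kdr, the VEGF receptor of early mesoderm, fell by 1.30 on the log2 scale and Gsc, a homeobox gene of the organizer, by 0.82. Of 14 neural progenitor genes, Tubb3 (by 0.59), Nes and Ncam1 rose and Sox1 fell by 0.77. The call of Nes was lost without WAPL replicate 2 or 3 or WAPL-NIPBL replicate 1 or 2 (adjusted p 0.11 to 0.15), and that of Ncam1 without WAPL replicate 1 (adjusted p = 0.055).

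Of 16 trophoblast and keratin genes, 3 rose and 2 fell, beside 4.99% of all genes higher and 5.67% lower. Cdx2, a trophoblast transcription factor, rose by 0.78, with the limit given above. The paired simple keratins Krt18 and Krt8 rose by 1.14 and 0.57, and Tfap2c fell by 0.55. The call of Krt8 was lost without WAPL replicate 2 (adjusted p = 0.081). Gata3, a trophoblast transcription factor, was 1.45, 0.494 and 1.65 CPM in WAPL and 0.237, 0.0352 and 0.105 CPM in WAPL-NIPBL, a log2 difference of -3.32 at very low levels. Epcam, an epithelial adhesion protein, rose by 0.84 (33.7 to 60.5 CPM on average). In the epithelial and mesenchymal list 5 of 26 rose and 2 fell, and these 5 include both keratins.

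Of 19 endoderm genes, 2 rose and 1 fell, beside 4.99% of all genes higher and 5.67% lower. Gata4, Gata6, Sox17, Sox7 and Foxa2 were at most 1.38 CPM on average in either line and were not called, as was also the case for Lama1, Lamb1 and Sparc. Dab2 fell, as given above, while Col4a1 and Col4a2, the neighbouring genes of basement membrane collagen IV, rose together. Col4a1 was 43.9, 49.7 and 53.4 CPM in WAPL and 80.2, 100 and 91.7 CPM in WAPL-NIPBL (log2 difference 0.89, SE 0.156, adjusted p = 0.00017). In the PDS5AB pair Col4a1 went the other way (log2 difference -0.64, adjusted p = 0.0029). Among 28 collagen and laminin genes, set against the same shares, 3 rose and 5 fell. Those that fell were Col5a1, Col5a2, Col6a2, Lama3 and Lama4, of fibrillar, microfibrillar and laminin matrix. The call of Col6a2 was lost in 6 alternatives, which were DESeq2, no count filter and the omission of WAPL replicate 2 or 3 or WAPL-NIPBL replicate 1 or 3 (adjusted p 0.057 to 0.16). Col5a1, also the called gene in the fibroblast list, was 27.5, 23.7 and 23.5 CPM against 11.8, 12.7 and 10.2 CPM.

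Genes of the 2-cell-like state, a rare state of embryonic stem cells that resembles the early cleavage embryo, had a lower summed level in WAPL-NIPBL. Of 14 tested, 7 fell, 7 were not called and none rose, beside 5.67% of all genes lower. Tcstv3, among those that fell, averaged 0.106 CPM in WAPL and 0 CPM in WAPL-NIPBL. That is below the minimum count of 10, so Tcstv3 entered the test through other groups. The list summed to 3.54 to 6.70 CPM in WAPL and to 1.09 to 1.64 CPM in WAPL-NIPBL, so the groups did not overlap although all 14 genes were under 1 CPM. Zscan4c was 0.927, 0.494 and 0.551 CPM against 0.0474, 0.141 and 0.140 CPM (log2 difference -2.50, adjusted p = 0.00041). The median log2 difference was -1.91, or -1.45 when the 6 genes with 3 counts or fewer in every library of one line were set at the bound that 3 counts give and 1 gene under that floor in both lines was left out. In bulk libraries fewer cells in this state and less RNA per such cell cannot be told apart. The Zscan4 and Usp17l members have near-identical copies, and fragments shared among copies were not counted. The count of 7 was 3 without WAPL replicate 1 or without WAPL-NIPBL replicate 3, and 2 when only the compared groups were fitted. In the PDS5AB pair all 14 were called lower, beside 16.6% of all genes. The count filter was applied over all groups, so genes this low in WAPL could enter the test through higher levels in PDS5AB. Such entry favours lower calls in the PDS5AB pair, and its part in the count of 14 was not tested.

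Germline genes that are normally held silent by DNA methylation showed 2 higher and 7 lower among 26, where 4.99% of all genes were higher and 5.67% lower. Rhox5, an X-linked homeobox gene of this class, fell from 47.7, 37.2 and 31.7 CPM to 12.2, 8.18 and 7.65 CPM (log2 difference -2.08, SE 0.184, adjusted p = 1.9e-09). Its level in TIR1 cells was 43.4 CPM ± 4.50 (SD, n = 3). Tdrkh, Mael, Zcwpw1, Tex19.1, Hormad1 and Syce1 fell, with log2 differences from -0.99 for Tdrkh to -0.28 for Syce1. Leaving out single libraries ended the call of Hormad1 (4 libraries), Syce1 (3), Mael (WAPL-NIPBL replicate 2) and Zcwpw1 (WAPL-NIPBL replicate 3), with adjusted p up to 0.19. Syce1 was also not called with the compared groups alone (adjusted p = 0.078) or without the count filter (adjusted p = 0.15). Stra8, the retinoic acid-induced gatekeeper of meiosis, rose by 0.74 and Piwil2 by 0.51. Dazl and Ddx4 were not called, and Dazl stood at 29.1 and 28.9 CPM. Of 19 genes of DNA methylation and its removal, Zbtb38 rose by 0.34 and Zfp57 and Uhrf1 fell by 0.25 and 0.21, and the Dnmt and Tet genes were not called. Each of the 3 calls was lost when 1 of 2 or more libraries was left out, with adjusted p up to 0.11, 0.18 and 0.16. Uhrf1 was also not called with the compared groups alone (adjusted p = 0.066) or without the count filter (adjusted p = 0.077).

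Imprinted genes, which are read from 1 parental copy, changed at separate loci. Of 48 tested, 6 rose and 4 fell, beside 10.7% called among all genes, and the list's median log2 difference was 0.079. Beside Plagl1, 3 genes of the Peg3 domain of chromosome 7 rose. Peg3 (6703892 to 6730431, minus strand) encodes a zinc-finger protein and was 57.0, 67.9 and 71.3 CPM in WAPL and 147.96, 140 and 143 CPM in WAPL-NIPBL (log2 difference 1.14, SE 0.094, adjusted p = 4.1e-10). Usp29 (6730578 to 6967219, plus strand), a deubiquitinase gene read the other way from the same region, was 1.20, 1.30 and 0.787 CPM against 5.16, 5.18 and 3.95 CPM (log2 difference 2.10, SE 0.206, adjusted p = 1.4e-08). Zfp264, at the far end of the domain, rose by 0.52 (adjusted p = 0.00064), whereas Zim1, Zim2 and Zim3 (adjusted p = 0.17, 0.54 and 0.26) and Zfp28, outside it, did not pass the test.

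The window around the starts of these 2 genes is shown because both genes rose and share it. RefSeq gives their starts 164 bases apart on GRCm38.p6, and the promoter windows, 250 bases before to 50 after each start, have 263 bases in common. The Usp29 window is chr7:6730333-6730632, on the plus strand, and holds 17 CG pairs. Capitals mark matches, on either strand, to TGACGTCA (1 match) and CCAAT (2 matches).

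Usp29: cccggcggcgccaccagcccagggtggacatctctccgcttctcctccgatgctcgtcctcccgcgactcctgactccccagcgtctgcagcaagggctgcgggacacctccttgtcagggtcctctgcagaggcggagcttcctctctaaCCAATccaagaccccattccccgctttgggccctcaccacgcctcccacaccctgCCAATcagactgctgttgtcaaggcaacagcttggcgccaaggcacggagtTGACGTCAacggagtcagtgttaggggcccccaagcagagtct

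Of 32851 promoter windows of the same length, 1.79% hold TGACGTCA and 37.4% hold CCAAT, and 31.4% hold at least as many CG pairs. These are matches of letters and nothing was measured at them. In the PDS5AB pair Peg3 and Usp29 were also higher, by 0.85 and 0.87 on the log2 scale, and in the treated pair by 0.73 and 1.97.

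Elsewhere among imprinted genes, Nnat rose by 1.32, from 3.76 to 9.29 CPM on average, and Zrsr1 by 0.35. Peg10 and Sgce, which share a promoter region, fell by 0.82 and 0.88, Cdkn1c by 0.88 and Grb10 by 0.53. The call of Cdkn1c was lost without WAPL replicate 1 (adjusted p = 0.052). The maternally read RNAs of the Dlk1 to Dio3 cluster stayed high in both lines. Meg3 was 188, 195 and 259 CPM in WAPL and 249, 241 and 299 CPM in WAPL-NIPBL, which did not pass the test (adjusted p = 0.28) except with the replicate block (adjusted p = 0.036). Rian rose by 0.44 (adjusted p = 0.036), a call that was lost without any single one of the 6 libraries (adjusted p 0.054 to 0.16). In the PDS5AB pair the same RNAs fell far, Meg3 from 184 to 13.4 CPM and Rian from 248 to 20.5 CPM (log2 differences -3.78 and -3.60). For Meg3 and Rian the WAPL pair showed no fall. Dio3 of the same cluster, which the imprinted list does not hold, was among the 12 genes that fell most.

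Signalling lists held calls in both directions, beside 10.7% called among all genes. In the Nodal and activin list 4 of 14 rose and 2 fell. Without WAPL replicate 1 or WAPL-NIPBL replicate 2 these counts were 2 and 1. Lefty1 and Lefty2, the feedback inhibitors of Nodal, rose by 1.16 and 0.80 (the latter call lost in 3 of 11 alternatives, adjusted p up to 0.12), while the activin antagonist Fst fell from 13.7, 14.6 and 14.4 CPM to 5.35, 5.32 and 4.33 CPM (log2 difference -1.51, SE 0.164, adjusted p = 8.4e-08). Of 19 Wnt output genes, 3 rose and 2 fell. Those that rose include T and the Wnt inhibitor Notum (by 0.73), and Apcdd1, another inhibitor, fell by 1.08. Lef1 also rose, by 0.65, a call lost without WAPL replicate 3 or WAPL-NIPBL replicate 1 (adjusted p = 0.13 and 0.15). It lies in the chromosome 3 segment described below and was lower in the treated pair (log2 difference -0.70, adjusted p = 0.0022). Of 14 genes in the BMP list, 3 rose (1 without WAPL replicate 2) and 2 fell. Id2 rose by 0.80 and the antagonist Nog fell by 2.02, the latter under 1 CPM. ERK feedback genes were not called in 16 of 18, but Etv4 fell by 1.14 and Ccnd1 by 0.47, the latter call lost without WAPL-NIPBL replicate 2 (adjusted p = 0.071). Retinoid genes split, with 5 of 18 higher (Crabp2 by 1.13) and 3 lower (0 without WAPL-NIPBL replicate 3, 1 without WAPL-NIPBL replicate 1). LIF and STAT3 genes had 1 of 16 higher, Il6st, and 1 lower, Jak1, both by under 0.3 on the log2 scale and both calls lost on leaving out 1 library (WAPL replicate 1 for Il6st, WAPL-NIPBL replicate 3 for Jak1, adjusted p = 0.066 and 0.053, and 0.089 for Jak1 without the count filter).

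Housekeeping and stress lists are given beside the 10.7% called among all genes. None of 40 nuclear oxidative phosphorylation genes, 13 mitochondrially encoded genes and 42 DNA replication genes was called, and 1 of 30 mitosis genes, Cenpe, which lies in the chromosome 3 segment. Among 29 glycolysis genes 1 rose (8 without the count filter) and 1 fell (Pfkfb4, not called in 6 alternatives, adjusted p up to 0.19), among 26 p53 targets 2 fell (Plk2 by 0.49, and Perp, not called without WAPL replicate 1 or 3 or WAPL-NIPBL replicate 2 or 3, adjusted p up to 0.19), among 20 NRF2 targets 2 rose (0 to 1 without WAPL replicate 2 or 3 or any WAPL-NIPBL replicate) and among 32 genes of amino acid transport and ATF4 signalling 3 rose (Phgdh by 0.57) and 1 fell (Cth, not called without WAPL replicate 1 or WAPL-NIPBL replicate 2, adjusted p = 0.12 and 0.060). Of 22 replication-dependent histone genes 2 fell (0 without WAPL-NIPBL replicate 2 or with the compared groups alone, 1 without WAPL replicate 1 or WAPL-NIPBL replicate 1 or 3). None of 9 aryl hydrocarbon receptor targets was called (2 at an unadjusted p under 0.05, 0 by DESeq2). In the oxidative phosphorylation, mitochondrially encoded and DNA replication lists, 1, 0 and 6 genes had an unadjusted p under 0.05, and DESeq2 called 0, 0 and 1. Of 17 other cohesin genes, 2 rose: Pttg1, the separase inhibitor securin, by 0.65 and Stag1, a cohesin subunit, by 0.36. Among 34 Polycomb subunits Aebp2 and Bmi1 fell by 0.30 and 0.37, the latter call lost without WAPL-NIPBL replicate 3 (adjusted p = 0.080).

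Clustered genes were also counted, since cohesin loops are known to act in them. No clustered protocadherin of 32 tested was called (2 at an unadjusted p under 0.05, 0 by DESeq2), and 24 of them were under 1 CPM. Of 30 Hox genes, 5 rose and 3 fell, all at low levels, beside 4.99% of all genes higher and 5.67% lower. The calls of Hoxa9 (higher), Hoxa2 and Hoxa5 (both lower) were lost on leaving out 1 of several libraries (adjusted p up to 0.16, 0.26 and 0.18), and that of Hoxa2 also by DESeq2. Hoxc6, Hoxc8, Hoxc9 and Hoxc10, neighbours in the HoxC cluster, rose by 0.85 to 1.57, to at most 2.32 CPM on average, but each of the 4 calls was lost when 1 of several libraries was left out (adjusted p up to 0.10, 0.18, 0.12 and 0.20). Of 30 voltage-gated ion channel genes 2 rose (1 without any 1 library other than WAPL-NIPBL replicate 3) and 3 fell (5 without WAPL-NIPBL replicate 1).

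Medians over whole chromosomes and over windows of neighbouring genes were compared next. Over the 19 autosomes and the X chromosome the median log2 difference lay between -0.049, on the X chromosome, and 0.031, on chromosome 19, and the share of genes called ran from 7.68% to 12.5%. On the X chromosome 24 genes were higher and 57 lower. Its median per library, relative to the untreated WAPL mean and on the scale of log2 (CPM + 0.5), was -0.011, 0.018 and -0.011 in WAPL and -0.071, -0.028 and -0.044 in WAPL-NIPBL, so the groups did not overlap. The library medians of the 2 lines were also apart on chromosomes 6, 16, 18 and 19. None of 13 tested genes of the Y chromosome was called (1 at an unadjusted p under 0.05, 0 by DESeq2). In 387 consecutive windows of 50 tested genes, 1 window had a median of at least 0.3 in size. It lies on chromosome 3, from 125865271 to 134934579, with a median log2 difference of 0.32, 18 genes higher and 1 lower. The other 386 medians lay between -0.21 and 0.27.

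That window covers the front of a run of raised genes whose edges were set after the values were seen, as the longest stretch in which the running median of 15 genes at 1 CPM or more stayed at 0.3 or above. The run begins at Egf and ends at Metap1, spans 8.81 Mb (chromosome 3, 129677565 to 138489515) and holds 42 such genes. Of these, 39 had a positive log2 difference, 32 were called higher and 1 lower, and their median was 0.57, a ratio of 1.49. These values chose the run and are given as a description. The next longest run on any chromosome had 7 genes.

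Hadh, a mitochondrial fatty acid oxidation enzyme, was 197, 195 and 180 CPM in WAPL and 286, 304 and 276 CPM in WAPL-NIPBL (log2 difference 0.60). Adh5, the formaldehyde-clearing dehydrogenase, was 319, 310 and 297 CPM against 479, 464 and 475 CPM (log2 difference 0.62). Cenpe, a kinetochore motor, was 169, 191 and 187 CPM against 297, 314 and 287 CPM (log2 difference 0.71). In every one of these the lowest WAPL-NIPBL library was well above the highest WAPL library.

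Others in the run were Ube2d3, a ubiquitin-conjugating enzyme (0.48), Ostc, of the oligosaccharyltransferase complex (0.67), Gar1, of the snoRNP that guides pseudouridylation (0.49), and Manba, the lysosomal mannosidase (0.92). The gene of the run that was called lower was Nfkb1, an NF-kappa-B subunit, which fell from 24.8, 24.6 and 28.9 CPM to 12.1, 14.8 and 13.7 CPM (log2 difference -0.94). Tet2, a DNA demethylating enzyme in the middle of the run, was not called (log2 difference 0.21, adjusted p = 0.50).

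The run had sharp sides. Elovl6, just before Egf, was 290, 301 and 293.3 CPM in WAPL and 301, 303 and 282 CPM in WAPL-NIPBL. On the far side Metap1, its last gene, was 77.6, 88.5 and 82.2 CPM against 125, 135 and 135 CPM. Eif4e, the next gene after it, was 195, 187 and 194 CPM against 188, 186 and 186 CPM. The 15 genes before the run had a median log2 difference of 0.043 with none higher and 1 lower, and the 15 after it -0.099 with 1 higher and 2 lower.

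**Figure D4:**
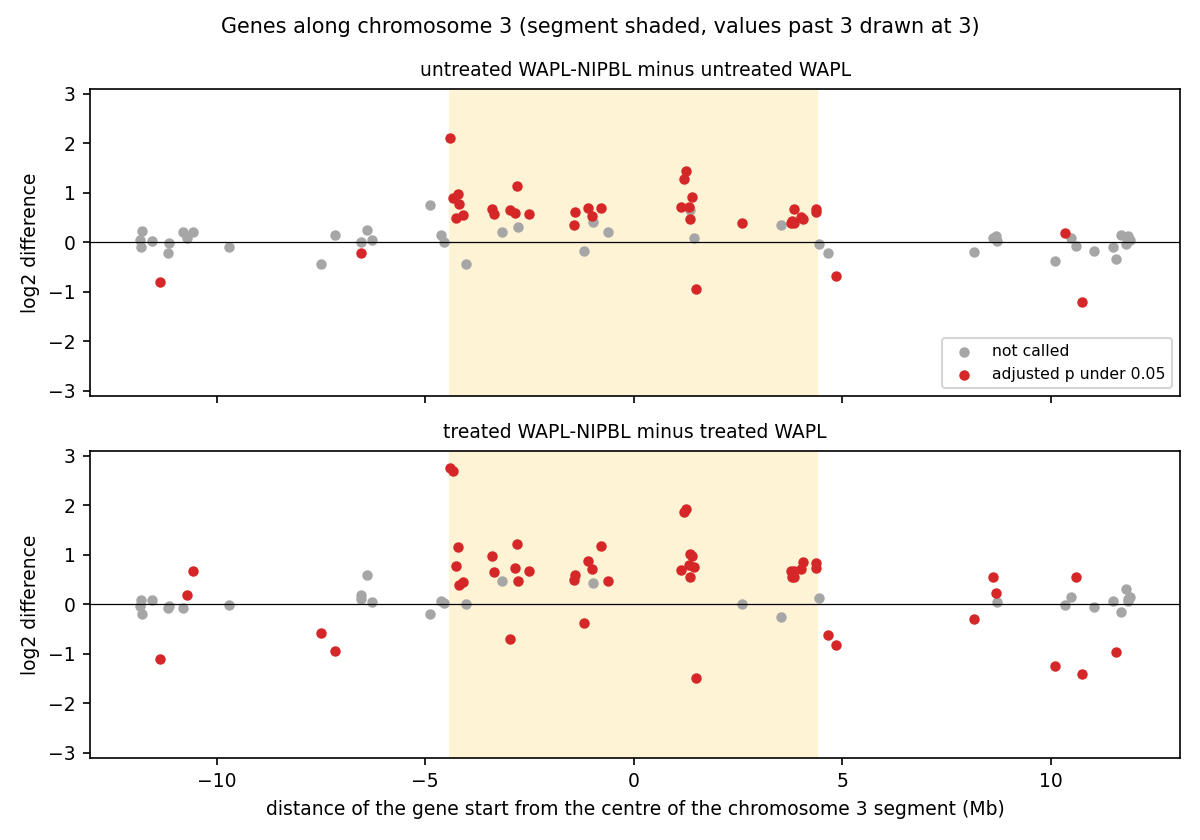
Log2 difference of genes at 1 CPM or more along chromosome 3, against their distance in Mb from the centre of the 8.81 Mb segment (shaded), for the untreated pair (top) and the treated pair (bottom). Genes inside the shading are centred near 0.57 and 0.69, and genes on both sides are centred near 0.

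Libraries that had no part in setting these edges were read next. In the treated pair, 34 of the 42 genes were called higher and 3 lower, where 14.4% of all genes were called higher, and the median log2 difference was 0.69. In the untreated PDS5AB pair 3 were called higher and 12 lower, where 16.2% of all genes were called higher and 16.6% lower, and the median was -0.042.

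Each library's median over the 42 genes, relative to the untreated WAPL mean and on the scale of log2 (CPM + 0.5), places the rise in 1 line. The 3 untreated WAPL-NIPBL libraries lay at 0.54 to 0.57 and the 3 treated ones at 0.51 to 0.55. The other 24 libraries, from the TIR1, PDS5AB, PDS5AB-NIPBL and WAPL lines, lay between -0.28 and 0.11, with the lowest values in auxin-treated PDS5AB and WAPL cells. The untreated libraries of the 2 lines set the edges of the segment. The 3 treated WAPL-NIPBL libraries had no part in that, and they lay above all 24 libraries of the other lines. Gene copy number was not measured in these samples. The segment holds 3.33% of all genes called higher in the untreated pair, and the tagged genes lie on other chromosomes.

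**Figure D5:**
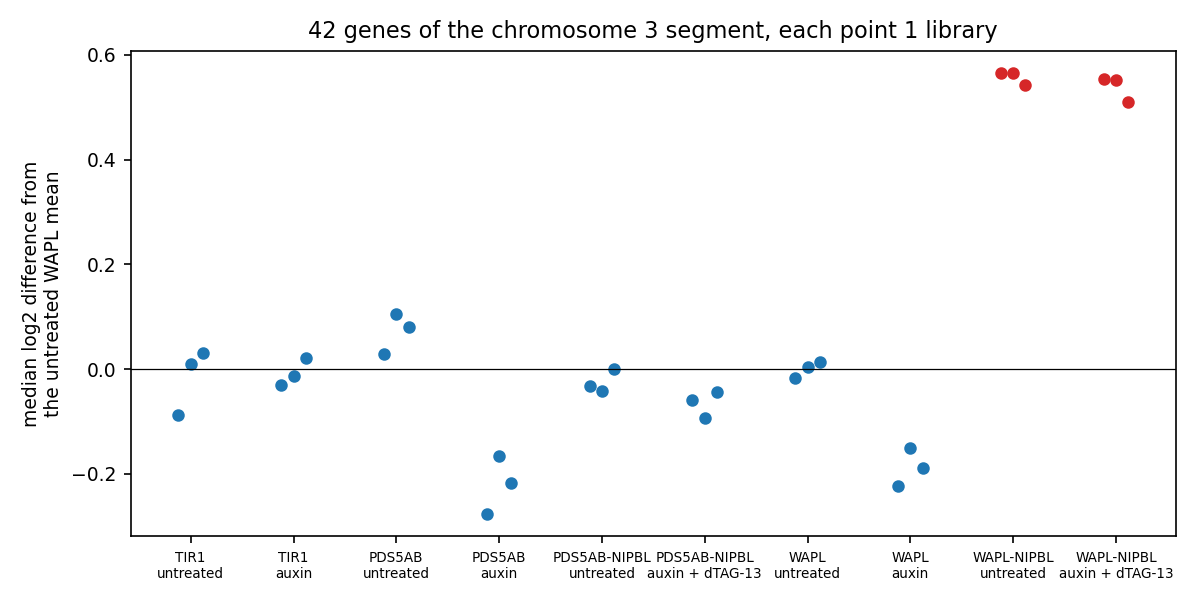
Median log2 difference from the untreated WAPL mean over the 42 genes of the chromosome 3 segment, with each point 1 of the 30 libraries and WAPL-NIPBL in red. The 6 WAPL-NIPBL libraries sit between 0.51 and 0.57, above all other libraries, whose highest value is 0.11, but the untreated ones of the WAPL and WAPL-NIPBL lines set the edges.

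The PDS5AB pair, which received the same FKBP and HaloTag edits, was then read beside the WAPL pair. Its untreated PDS5AB libraries stood apart from the other 12 untreated libraries, at -77.1 to -69.6 on the first principal component against -14.3 to 50.2. All 7 tested genes of the Y chromosome list were also called higher in PDS5AB-NIPBL than in PDS5AB (median log2 difference 2.68), beside 16.2% of all genes. The part of either in the differences between the pairs was not tested. In this pair 6506 genes (32.7%) were called between untreated PDS5AB-NIPBL and untreated PDS5AB. Both pairs called 1188 genes, 1015 of them in the same direction (495 higher and 520 lower) and 173 in opposite directions. The 1015 genes were 47.9% of the WAPL pair's calls and 15.6% of the PDS5AB pair's. Across the 19868 genes Pearson's r of the log2 differences was 0.33. The genes are not independent of one another, and the libraries of the 2 pairs are distinct.

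Of the 24 genes with the largest changes, 17 were called in the same direction in the PDS5AB pair and 2 in the opposite one. Plagl1 rose in both, by 1.68 and 1.82, and Nlrp4f fell in both, by 2.56 and 2.19. Dio3 likewise fell in both, by 2.67 and 3.43. The levels differed between the pairs. Plagl1 was 9.85 to 11.9 CPM in PDS5AB and 36.6 to 40.1 CPM in PDS5AB-NIPBL. Both were below the 88.9 to 95.5 CPM of TIR1, whereas WAPL-NIPBL, at 341 to 358 CPM, was above it. In PDS5AB, Nlrp4f was 27.1 to 29.9 CPM and Dio3 16.97 to 27.7 CPM. TIR1 had 9.11 to 9.88 CPM of Nlrp4f and 6.20 to 7.75 CPM of Dio3. Pramel6 and Tmem40 went opposite ways, with log2 differences of -2.14 and 1.55 in the WAPL pair and 1.01 and -0.67 in the PDS5AB pair. Further genes that moved alike in both pairs were Rftn1 and Adamts8, which fell by 2.14 and 1.94 in the WAPL pair, and Nxph3, Misp and Mybpc2, which rose by 1.53, 1.53 and 1.51.

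A direct test of the difference between the pairs called 2475 genes (12.5%). Among the 2119 genes of the WAPL pair, which were chosen by one side of that difference, 678 passed it, and 422 of these had opposite signs in the 2 pairs. Spats2l was lower by 2.24 on the log2 scale in WAPL-NIPBL and read 0.022 in the PDS5AB pair, and Gphn was higher by 2.13 with 0.11 in the PDS5AB pair. St8sia5, a sialyltransferase of the ganglioside pathway, fell by 2.54 in the WAPL pair and read 0.18 in the PDS5AB pair. For the other 1441 called genes the difference between the pairs did not pass the test, which does not show that the pairs were alike.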

How the data were processed

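Polyadenylated RNA of 30 libraries was sequenced, and 6 of them, 3 in each of 2 groups, form the comparison described above. The authors deposited 1 table of raw fragment counts per gene. It was made with featureCounts 2.0.1 in paired-end mode on GENCODE vM23 gene models of mouse genome GRCm38, per the file headers, with no option for strand or for multi-mapping fragments. Genes that overlap another gene on the other strand, and genes with near-identical copies, are therefore uncertain. STAR 2.7.7a is named in the submitters' processing notes. All value columns of the table were mapped to samples.

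Counts were tested with edgeR 4.0.16 in R 4.3.3. The filterByExpr function with a minimum count of 10 retained 19868 genes, libraries were scaled by TMM, and all 30 libraries entered a model with 10 group means (20 residual degrees of freedom, biological coefficient of variation 9.15%). The quasi-likelihood F-test was adjusted by Benjamini-Hochberg over those genes, and genes with an adjusted p under 0.05 are called. Standard errors derive from the F statistic, and CPM values are TMM-scaled. In data simulated for the untreated WAPL pair with 19868 genes, 68 of 100 genes changed 2-fold and 88 of 100 changed 4-fold were recovered, with 9 false calls.

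Same-numbered libraries of the 2 lines deviated together (correlations 0.11 to 0.23 before and 0.21 to 0.25 after treatment), so the replicate number is taken from the data to pair them. In the PDS5AB pair it does not (-0.070 to 0.044). The main model, with its 2119 calls and their p-values, left the replicate number out. It entered only in the replicate block given as an alternative, which called 2699 genes.

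The comparison, the 37 gene lists and the naming rule were chosen with earlier results of these data known. The rule names the tagged genes, the 12 largest changes per direction (called, mean of at least 50 counts, groups separated, no predicted model), the 3 largest called members of each list, 3 genes per direction called alike in the PDS5AB pair, and called neighbours of the edited genes. Other genes in the text were chosen after their values were seen, as were the edges of the chromosome 3 segment. Alternatives tried were DESeq2 1.42.0, RLE size factors, testing without the count filter, fitting only the groups compared, a replicate block, a 2-fold minimum and leaving out each replicate. Gene positions come from the deposited table.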

Additional observations from a re-analysis of the deposited data

Results flagged for a closer look

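The difference between WAPL-NIPBL and WAPL was set against the difference between PDS5AB-NIPBL and PDS5AB for the tagged genes, for the 24 largest changes and for Gm364, and 19 of these genes passed edgeR's test of the difference itself, beside 12.5% of all genes. The 24 genes and Gm364 were chosen for the size of their change in the WAPL pair, which is one side of that difference, so their values are a description. Values are the log2 difference of the WAPL pair minus that of the PDS5AB pair. Among tagged genes it was -0.81 for Nipbl and -0.32 for Rad21, both lower in the WAPL pair by more, and 0.57 for Wapl, whose AID tag is carried by the WAPL lines. For Rad21 the levels of WAPL-NIPBL and PDS5AB-NIPBL overlapped, and PDS5AB was below WAPL.

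Lower in the WAPL pair with little change in the PDS5AB pair were Grid1 (-2.73), St8sia5 (-2.72) and Spats2l (-2.26). Pramel6 (-3.15) was lower in one pair and higher in the other. Scn3a (-1.82), Pcsk1 (-1.27), Lcp1 (-1.25), Parm1 (-1.22) and Ddr2 (-0.71) were lower in both pairs and further down in the WAPL pair.

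On the higher side stood Gm364 (3.47), Egf (2.33) and Gphn (2.02), with little change in the PDS5AB pair, and Tmem40 (2.22), which was higher in one pair and lower in the other. Ppm1h (1.52), Usp29 (1.23) and Efhc2 (0.75) rose in both and by more in the WAPL pair. Adjusted p ran from 1.1e-12 for Gphn to 0.011 for Efhc2. The PDS5AB libraries lie in an earlier stretch of the library numbering than the other 3 untreated groups of these pairs, and the part of this in the differences was not tested.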

How the results depend on the processing

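The count of 2119 called genes was 2112 with RLE size factors, 2231 with DESeq2, 1859 when only the 2 groups were fitted and 2075 without the count filter. A 2-fold minimum left 593. The replicate block gave 2699, and beside the calls of Pds5b, Sox2 and Meg3 given above it changed the call of no named gene. Leaving out 1 replicate gave 1442 to 1764, the lowest without WAPL replicate 1. In the treated pair these omissions gave 4748 to 5516, in the PDS5AB pair 5101 to 6126, and for the difference between the pairs 1787 to 2720. Calls shared in direction with the PDS5AB pair numbered 965 to 1313.

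The segment median of 0.57, alternatives for which were chosen after seeing the data, was 0.54 over all 59 tested genes, 0.62 without genes that overlap the other strand, and 0.53 to 0.59 without 1 replicate. Of 135 named genes, 42 lost a call under some alternative, 93 did not, and none reversed. Pds5b, among the 93, gained a call with the replicate block. Of 814 list counts under an alternative, 672 stayed within 1.5 times. Depth limits the low genes: all 14 2-cell-like genes and 23 of 30 Hox genes were under 1 CPM in WAPL, where single counts weigh heavily. With 3 libraries per line the precision rests on spread shared across genes.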

Other observations

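Besides the chromosome 3 segment, 7 shorter runs of neighbouring genes had a running median of at least 0.3 in size, in either direction, and held 1 to 7 genes each. The run of 7, on chromosome 17 from Brd2 to Btnl7-ps, lies in the major histocompatibility region and had a median log2 difference of 0.36. On chromosome 11 a run of 4 genes starting at Slfn3, in the Schlafen cluster, had a median of -0.72. In 5 others the genes of the run itself had medians of 0.24 or less in size, so the neighbours on their sides set the running median.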
